A study of Mus musculus with 42 samples.

Results

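Late cultures of mouse D3 embryonic stem cells directed towards osteoblasts were compared between day 16 and day 30. The arrays were chosen by their titles, Osteo16 VD3 and Osteo30 VD3, which gave 12 of the 42 arrays of the series. They carry 6 of the 21 RNA samples, 3 from each of these days, each hybridised to both Affymetrix mouse chips, MOE430A and MOE430B (430A and 430B from here on). D3 is a mouse line derived from the blastocyst, and each of the 7 days of the series, from day 4 to day 30, has 3 RNA samples.

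Both groups had the same treatment in the labels: culture in DMEM with vitamin D3, B-glycerophosphate and ascorbic acid, so that day was the labelled difference between them. The day 16 group is 3 RNA samples taken after 16 days of differentiation and the day 30 group is 3 taken after 30 days. No untreated culture is analysed here. The labels describe the material as a pure clone whose contaminating cell type was undetermined. They do not say whether a day's 3 samples were grown apart, so a p-value here weighs only the spread among the samples taken, which may be technical. The RNA is bulk RNA, and fewer cells of a type cannot be told apart from less of its RNA per cell.

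Osteoblasts lay down a matrix built mainly of fibrillar collagen, which is then cross-linked and mineralised. Loose mesenchyme also makes fibrillar and microfibrillar collagens, elastic fibre proteins and small proteoglycans. A basement membrane is a different sheet, made of laminins, type IV collagen and nidogen, and the parietal endoderm of the mouse yolk sac is known for secreting it in large amounts. Gastrokines are small proteins secreted by the surface cells of the stomach lining.

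The array values are the deposited MAS5 signal, scaled to a common mean on each array and taken here to log2. A change is the mean log2 signal of day 30 minus that of day 16, with its standard error from limma, n = 3 arrays a day. Adjusted p-values are limma's with Benjamini-Hochberg adjustment over all probe sets tested on a chip. Rose and fell mean an adjusted p under 0.05. Values of single arrays are given in the order of replicates 1, 2 and 3. Where a value of the lower day lay under the 20th percentile of the chip, the fold can only be bounded and is given as at least so much. A log2 change printed beside such a bound is the fitted value, includes levels under that percentile and is no bound itself. The signal of different genes comes from different probes, so levels are not compared between genes. A summed signal of a list follows its brightest probe sets and does not stand for most of its members.

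The days also differed in how the arrays were run. All day 16 arrays of a chip were scanned in 1 batch and no day 30 array was in that batch, so day and scan batch cannot be told apart. The log2 ratio of the 3' to the 5' Gapdh control probe sets, a measure of RNA and labelling quality, was 2.55 ± 0.15 (SD, n = 3) for day 16 and 3.27 ± 0.19 for day 30 with 430A, and 2.93 ± 0.18 against 3.28 ± 0.21 on 430B. The median signal of an array with 430A was 580 to 609 for day 16 and 550 to 580 for day 30. Chip lot on 430A followed day only in part, because 1 lot held day 16 replicate 1 with day 30 replicates 2 and 3. On 430B no lot held arrays of both days, so lot cannot be told apart from day there. The operator in the array headers also changed between these days, on both chips. On day 25, used further on, that ratio was higher than on either day, at 3.84 ± 0.38 with 430A and 3.85 ± 0.37 on 430B. With the Gapdh ratio as a covariate 166 probe sets of 430A passed the test, and with chip lot as a block 430 did, against 503 without either. Of the 503, 157 were among the 166 and only 279 among the 430. The part of RNA quality in the results was not tested further.

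On 430A 192 of 16705 probe sets rose (1.15%) and 311 fell (1.86%), together 3.01%. On 430B 35 of 18260 rose (0.192%) and 87 fell (0.476%), together 0.668%. Over both chips 625 of 34965 probe sets (1.79%) passed the test, of which 557 changed at least 2-fold, and the median change over all probe sets tested was -0.03. With each gene represented by 1 probe set, 136 of 15600 genes rose (0.872%) and 237 fell (1.52%), so 2.39% changed. The values of the days did not overlap for 24.9% of all genes tested. These shares of genes are the ones to set beside each list count below. The lists were chosen with earlier results of these data known, so a count above its share describes the list and is no test of it. The number of calls depended on single arrays. On 430A it was 135 without day 16 replicate 1, 147 without day 16 replicate 2 and 137 without day 30 replicate 2, while it was 341 to 455 without each of the other 3 arrays. On 430B it was 41 without day 16 replicate 1, 37 without day 16 replicate 2 and 64 without day 30 replicate 2.

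**Figure D1:**
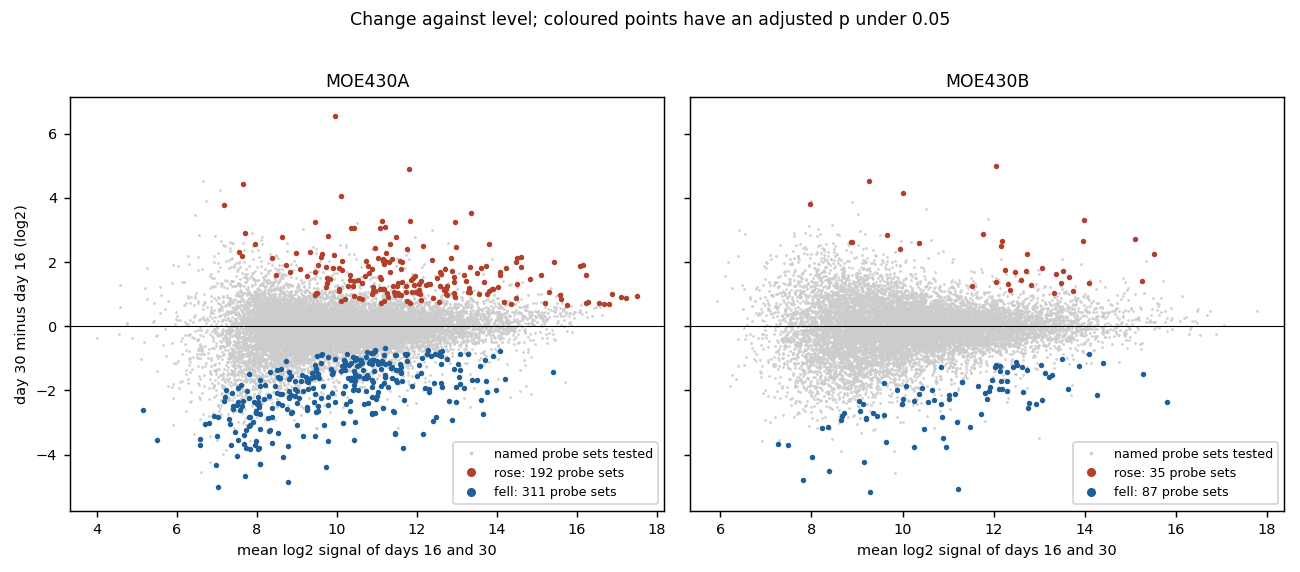
Change from day 16 to day 30 (log2, vertical) against the mean log2 signal of these days (horizontal), 1 panel per chip, with grey points for probe sets that have a gene name and coloured points for all those past an adjusted p of 0.05. Calls are spread over the whole range of signal, and 430A holds 503 of the 625.

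The largest rises included a pair of gastrokines, a transporter, a water channel and a laminin chain. The 12 largest were taken among genes past the test whose days did not overlap and whose mean signal was above the median of the chip, each gene by the probe set with the largest change. Probe sets with an ID ending in _x_at, which may bind transcripts of other genes, were left out of that ranking. The gene lists kept them, and such probe sets stand for Tgfbi, Fmod, Ndn, Meg3, Pgk1 and Clu below. Gkn2, gastrokine 2, had a log2 signal of 8.56, 9.12 and 10.37 on day 16 and 14.25, 13.32 and 15.15 on day 30. All day 30 values lay far above all day 16 values, and Gkn2 rose by 4.89 ± 0.66 (29.6-fold, adjusted p = 0.000535). Gkn1, gastrokine 1, went from 7.67, 7.83 and 8.71 to 11.40, 11.72 and 13.25, a rise of 4.06 ± 0.72 (16.6-fold, adjusted p = 0.00469). A second Gkn1 probe set, of the kind left out of the ranking, gave 4.58, 6.73 and 8.75 against 12.95, 12.60 and 14.16, a rise of at least 51.6-fold (adjusted p = 0.00045). Both gastrokines were highest on day 30 replicate 3. All 3 of these calls were kept whichever of the 6 arrays was left out.

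The Gkn1 and Gkn2 starts lie 22.45 kb apart on chromosome 6, on opposite strands. Since these neighbours rose together, the 250 bases before each start are shown, from RefSeq on GRCm38.p6, at chr6:87350916-87351165 on the minus strand for Gkn1 and chr6:87373115-87373364 on the plus strand for Gkn2, both written 5′ to 3′ along the gene. Capitals mark GATAA or its reverse complement, the core bound by the GATA family, of which Gata4 is described below.
Gkn1: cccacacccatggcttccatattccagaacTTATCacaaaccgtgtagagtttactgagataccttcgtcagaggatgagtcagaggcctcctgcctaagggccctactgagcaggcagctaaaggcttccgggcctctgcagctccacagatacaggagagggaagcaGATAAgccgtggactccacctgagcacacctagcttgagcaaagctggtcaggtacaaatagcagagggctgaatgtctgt
Gkn2: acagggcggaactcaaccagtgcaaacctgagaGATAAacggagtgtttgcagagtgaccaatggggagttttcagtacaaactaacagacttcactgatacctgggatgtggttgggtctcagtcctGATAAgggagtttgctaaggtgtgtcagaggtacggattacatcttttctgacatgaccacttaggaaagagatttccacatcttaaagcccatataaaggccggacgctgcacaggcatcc
Each window held 2 matches, at 220 and 81 bases before the start of Gkn1 and at 217 and 122 bases before that of Gkn2. Such a match, on either strand, is common: it was in 23.02% of all 27025 promoter windows in the table and in 16.0% of those of the genes tested. It was in 14 of the 102 windows found for genes that rose (13.7%) and in 20 of the 180 found for genes that fell (11.1%). Of the 12 largest rises 8 were in the table, of which Gkn1, Gkn2 and Sprr2f held a match. Of the 12 largest falls 9 were in the table and 0 held one. A match describes these letters and shows no binding.

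**Figure D2:**
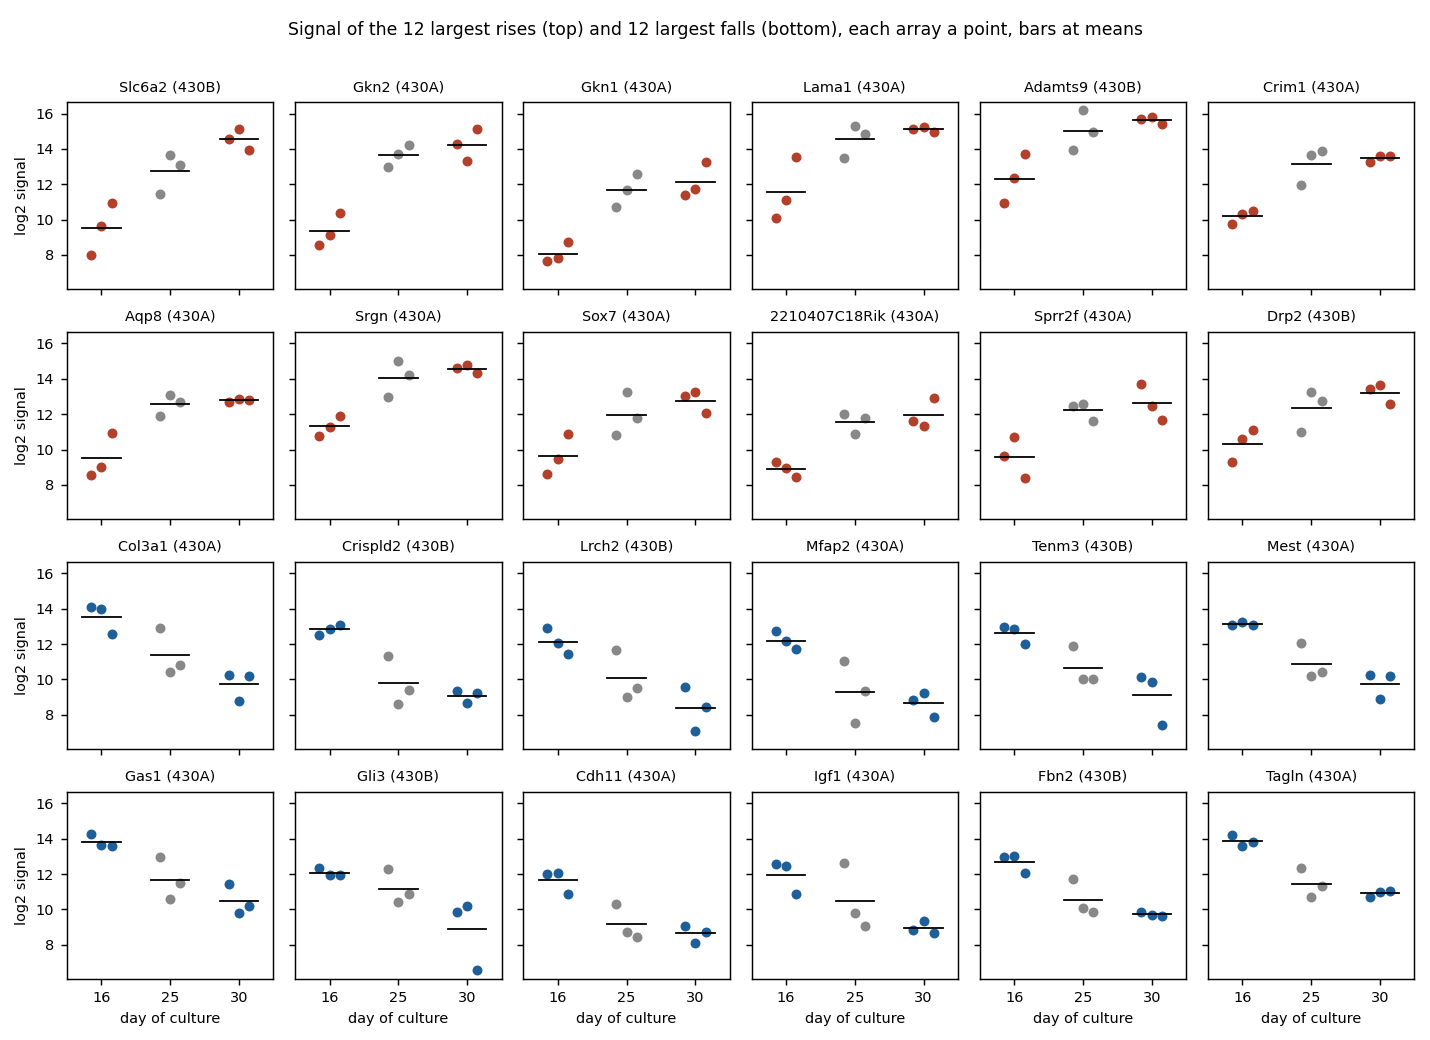
Log2 signal (vertical) on each array of day 16, day 25 (grey) and day 30 for the 12 largest rises (red) and the 12 largest falls (blue), 1 panel per gene with 1 point per replicate and a bar at the mean. The day 16 and day 30 points do not overlap in any panel, which the choice of these genes required.

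Slc6a2, the noradrenaline transporter, was the largest rise on the rule used here. Its 430B probe set had 8.02, 9.65 and 10.95 on day 16 and 14.56, 15.15 and 13.95 on day 30, a rise of 5.01 ± 0.79 (32.3-fold, adjusted p = 0.00419). The size depended on the day 16 arrays, at 4.25 without replicate 1 and 5.72 without replicate 3. A probe set on 430A rose by 1.49 (adjusted p = 0.0048), and the other two on 430B had changes of 0.39 and -0.07, neither past the test. Aqp8, a water channel of the plasma membrane, went from 8.55, 9.0 and 10.95 to 12.67, 12.84 and 12.81, a rise of 3.28 ± 0.43 (9.69-fold, adjusted p = 0.00045). Day 16 replicate 3 was its highest day 16 array, and the rise was 4.00 without it. Srgn, serglycin, the core protein of a secretory granule proteoglycan, went from 10.79, 11.29 and 11.88 to 14.64, 14.77 and 14.34, a rise of 3.26 ± 0.43 (adjusted p = 0.00045).

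Adamts9, a secreted protease that cuts proteoglycans, had 10.92, 12.33 and 13.70 on day 16 and 15.69, 15.78 and 15.40 on day 30. It rose by 3.31 ± 0.53 (9.91-fold, adjusted p = 0.00419), or by 2.61 without day 16 replicate 1 and 4.00 without day 16 replicate 3. Sprr2f, of the small proline-rich family of epithelial envelopes, went from 9.61, 10.72 and 8.36 to 13.73, 12.45 and 11.65 and rose by 3.05 ± 0.55 (adjusted p = 0.00562), or by 2.44 without day 16 replicate 3. The RIKEN transcript 2210407C18Rik went from 9.30, 8.96 and 8.46 to 11.62, 11.35 and 12.93 and rose by 3.06 ± 0.61 (adjusted p = 0.00955). These genes, and Slc6a2, Aqp8 and Srgn, held in each of the 6 runs with 1 array left out.

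Crim1 and Drp2 also belong to the 12. Crim1, a membrane protein that binds BMPs, went from 9.74, 10.33 and 10.48 to 13.23, 13.61 and 13.57 and rose by 3.29 ± 0.80 (adjusted p = 0.0278). Its call was kept without day 16 replicate 3 and lost without each other array (adjusted p 0.0618 to 0.121), and its other probe set did not pass (1.33, adjusted p = 0.42). Drp2, a relative of dystrophin, went from 9.29, 10.57 and 11.12 to 13.40, 13.64 and 12.59 and rose by 2.88 ± 0.67 (adjusted p = 0.0405). That call too was kept without day 16 replicate 3 and lost without each other array (adjusted p 0.0567 to 0.251). Of its other 430B probe sets one rose by 2.67 ± 0.40 (adjusted p = 0.0037) and one did not pass (0.20, adjusted p = 0.969). Lama1 and Sox7, the other two of the 12, belong to groups described next.

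Of 17 measured genes on the gastric and gut mucosa list 5 rose and 0 fell, with a median change of 1.20, beside 0.872% of genes that rose and a median of -0.03 over all. The 5 include Gkn1 and Gkn2, already named among the largest rises. The summed signal of the list was 29940 to 38880 on day 16 and 50040 to 105600 on day 30. Ctse, cathepsin E, an aspartic protease of stomach surface cells, had 10.48, 9.55 and 10.25 on day 16 and 12.52, 12.19 and 12.38 on day 30. It rose by 2.27 ± 0.25 (4.83-fold, adjusted p = 6.61e-05) and was kept in all 6 runs. Psca, a surface antigen also found in stomach, went from 11.32, 10.18 and 7.68 to 12.73, 11.76 and 12.04, a rise of 2.45 ± 0.59 (adjusted p = 0.0266). Psca was kept without day 16 replicate 1 (3.25) and lost without each other array (adjusted p 0.0616 to 0.107), with a change of 1.43 without day 16 replicate 3. Pigr, which carries antibodies across epithelia, went from 8.22, 7.86 and 7.82 to 10.48, 8.83 and 9.69, a rise of 1.70 ± 0.43 (adjusted p = 0.0334) that was kept without day 30 replicate 2 and lost without each other array (adjusted p 0.0827 to 0.163). With chip lot as a block the calls of Psca (adjusted p = 0.197) and Pigr (adjusted p = 0.157) were lost.

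Other members of that list did not pass. Tff1, a trefoil peptide of gastric mucus, had 12.18, 12.17 and 12.65 on day 16 and 12.81, 13.01 and 13.51 on day 30, without overlap (0.78 ± 0.24, adjusted p = 0.0792). Tff3, the trefoil peptide of goblet cells, had a change of 2.03 (adjusted p = 0.128). Gkn3, the third gastrokine, had 11.83, 11.63 and 11.92 against 11.99, 11.72 and 12.15, overlapping values (0.16, adjusted p = 0.92). Cdx2, the intestinal transcription factor, had a change of -1.52 (adjusted p = 0.404), which became 0.02 with chip lot as a block.

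Basement membrane genes split by chain. Of 23 measured genes 6 rose and 3 fell, with a median change of -0.37, and the summed signal was 119700 to 181200 on day 16 against 325600 to 405900 on day 30. The mean log2 signal of the list, which weighs each gene alike, overlapped, at 11.59 to 11.75 on day 16 and 11.31 to 11.68 on day 30. The 6 that rose are the chains of the laminin trimer known as laminin-111, both chains of the common type IV collagen, and nidogen 1, which links those networks. The median lies below 0 because most of the others were lower or little changed.

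Lama1, the alpha 1 chain, had 10.10, 11.12 and 13.52 on day 16 and 15.15, 15.24 and 14.97 on day 30. The day 16 arrays were spread over more than 3 log2 units and the day 30 arrays lay close together. Lama1 rose by 3.54 ± 0.73 (11.6-fold, adjusted p = 0.0121), or by 2.80 without day 16 replicate 1 and 4.51 without day 16 replicate 3. Leaving out day 16 replicate 1, day 16 replicate 2 or day 30 replicate 2 ended its call, with an adjusted p of 0.0865, 0.0652 and 0.0563. Lamb1, the beta 1 chain, went from 12.57, 13.47 and 14.24 to 15.71, 15.63 and 15.34 and rose by 2.14 ± 0.37 (adjusted p = 0.00464). Lamc1, the gamma 1 chain, went from 10.97, 11.38 and 12.86 to 14.39, 14.43 and 13.81 and rose by 2.47 ± 0.45 (adjusted p = 0.0054), while a second Lamc1 probe set did not pass (0.85 ± 0.87, adjusted p = 0.705). The Lamb1 and Lamc1 rises were kept in all 6 runs and with chip lot as a block. All 3 chains had their highest day 16 value on replicate 3.

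Col4a1 and Col4a2, the alpha 1 and alpha 2 chains of type IV collagen, are transcribed away from each other from starts 21 bases apart on chromosome 8. Col4a1 had 14.93, 14.82 and 15.67 on day 16 and 17.06, 17.20 and 16.81 on day 30, a rise of 1.88 ± 0.42 (adjusted p = 0.0187). Col4a2 had 13.39, 13.08 and 14.06 against 15.76, 15.90 and 15.35, a rise of 2.16 ± 0.41 (adjusted p = 0.00697), kept in all 6 runs. The pair moved alike on every array in rank, with day 30 replicate 2 highest and day 16 replicate 2 lowest. The Col4a1 call was lost without replicate 1 or 2 of either day (adjusted p 0.0528 to 0.0965). Nid1 went from 13.17, 13.37 and 13.16 to 15.24, 14.98 and 14.58, a rise of 1.70 ± 0.40 (adjusted p = 0.0242) that was kept without day 30 replicate 3 and lost without each other array (adjusted p 0.0592 to 0.0959). With chip lot as a block the changes were 1.68 for Col4a1 (adjusted p = 0.11), 1.81 for Col4a2 (0.0502) and 1.06 for Nid1 (0.218), so that 3 of the 6 rises passed.

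The basement membrane genes that fell are of other kinds. Frem1, one of the proteins that anchor embryonic epithelium to dermis, had 12.12, 11.98 and 11.50 on day 16 and 5.95, 4.87 and 9.30 on day 30. It fell at least 12.6-fold (adjusted p = 0.00625, kept in all 6 runs), with a change of -5.16 that was -4.24 without day 30 replicate 2 and -6.46 without day 30 replicate 3. Frem2, of the same complex, went from 13.14, 13.04 and 13.10 to 11.07, 8.34 and 11.66 and fell by 2.73 ± 0.52 (adjusted p = 0.00944). Frem2 was lost without day 16 replicate 1 (0.0561) or replicate 2 (0.053), and its change was -1.72 without day 30 replicate 2 and -3.39 without day 30 replicate 3. Fras1, the third of them, had a change of -1.27 ± 0.32 that did not pass (adjusted p = 0.0726), without overlap of the days. Col4a5, a type IV collagen chain of specialised membranes, fell by 2.26 ± 0.56 (adjusted p = 0.031), lost without replicates 1 or 2 of day 16 or 2 or 3 of day 30, each left out alone (adjusted p 0.0606 to 0.173).

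Transcription factors of the endoderm were measured beside these. Of 17 on the list 2 rose and 0 fell, with a median change of -0.41. Changes were below 0 for 9 genes and above 0 for 8. Where the days did not overlap, 3 genes were lower and 6 higher on day 30. The summed signal was 20670 to 31790 on day 16 and 44220 to 55690 on day 30. The mean log2 signal of the list overlapped, at 9.425 to 9.803 on day 16 and 9.484 to 9.881 on day 30. Sox7, a factor of primitive and parietal endoderm and of early endothelium, had 8.61, 9.46 and 10.88 on day 16 and 13.01, 13.23 and 12.06 on day 30. It rose by 3.11 ± 0.59 (8.65-fold, adjusted p = 0.00675), was lost without day 16 replicate 1 (0.0539) and was 3.73 without day 16 replicate 3, and its 430B probe set did not pass (-0.33, adjusted p = 0.938). Gata4, a zinc finger factor of endoderm and heart, went from 9.74, 9.74 and 10.28 to 11.44, 11.49 and 11.55, a rise of 1.58 ± 0.38 (adjusted p = 0.0277). Gata4 was kept without day 16 replicate 3 and lost without each other array (adjusted p 0.0655 to 0.117) and with chip lot as a block (0.193). Sox17, the endoderm relative of Sox7, had 9.60, 11.66 and 13.14 against 13.70, 14.47 and 14.07 and just missed the threshold (2.61 ± 0.73, adjusted p = 0.0563).

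Of 25 measured products of yolk sac and liver endoderm 1 rose and 0 fell. Their median change was 0.40, with 17 changes above 0 and 8 below, and their summed signal overlapped between the days, at 42750 to 103500 on day 16 and 76400 to 92250 on day 30. Lrp2, megalin, an uptake receptor of visceral endoderm and kidney, went from 7.90, 8.70 and 10.38 to 10.92, 10.66 and 10.81, a rise of 1.81 ± 0.45 (adjusted p = 0.0314). It was kept without day 16 replicate 3 (2.50) and lost without each other array (adjusted p 0.077 to 0.193). Afp, alpha-fetoprotein, overlapped between the days, with 12.56, 13.58 and 14.53 on day 16 and 14.86, 13.99 and 14.46 on day 30 (0.88, adjusted p = 0.761).

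The largest falls included collagen, microfibril, hedgehog pathway and imprinted genes. Crispld2, a secreted protein of mesenchyme, had 12.53, 12.88 and 13.08 on day 16 and 9.33, 8.65 and 9.21 on day 30. It fell by 3.77 ± 0.54 (13.6-fold lower on day 30, adjusted p = 0.00371), and its other two probe sets fell too, with changes of -5.07, by a probe set of the kind left out of the ranking, and -2.27. Mest, an imprinted gene of embryonic mesoderm, went from 13.08, 13.26 and 13.09 to 10.25, 8.88 and 10.18 and fell by 3.37 ± 0.49 (adjusted p = 0.00156). Gas1, a surface co-receptor for hedgehog ligands, went from 14.26, 13.63 and 13.60 to 11.43, 9.78 and 10.17 and fell by 3.37 ± 0.61 (adjusted p = 0.0054). Tagln, transgelin, an actin-binding protein of smooth muscle and activated fibroblasts, went from 14.21, 13.57 and 13.84 to 10.73, 10.96 and 11.06 and fell by 2.96 ± 0.46 (adjusted p = 0.00255). These 4 genes were kept whichever array was left out.

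Tenm3, a teneurin that acts in cell adhesion, had 12.99, 12.86 and 12.00 on day 16 and 10.16, 9.85 and 7.40 on day 30. It fell at least 10.5-fold (-3.48 ± 0.53, adjusted p = 0.00371, kept in all 6 runs), with a change of -2.62 without day 30 replicate 3. Gli3, a transcription factor of the hedgehog pathway, went from 12.33, 11.96 and 11.96 to 9.85, 10.20 and 6.57, at least 7.19-fold lower (-3.21 ± 0.61, adjusted p = 0.0101). Gli3 was lost without day 16 replicate 1 (0.0669) or replicate 2 (0.053), its change was -3.87 without day 30 replicate 2 and -2.06 without day 30 replicate 3, and its other probe sets did not pass (0.65 and -0.83). Lrch2, a scaffold protein with leucine-rich repeats, went from 12.90, 12.05 and 11.42 to 9.58, 7.06 and 8.46, at least 11.8-fold lower (-3.76 ± 0.65, adjusted p = 0.00625). Lrch2 was lost without day 16 replicate 1 (0.0518), and its change was -4.36 without day 30 replicate 1 and -3.10 without day 30 replicate 2.

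Of 27 measured genes for fibrillar collagens and their processing, 1 rose and 7 fell, with a median change of -0.96, beside 1.52% of all genes that fell. The summed signal was 371100 to 549900 on day 16 and 305400 to 338000 on day 30. The chains of type VI collagen, which forms beaded microfilaments around cells, fell together. Col6a1 had 14.80, 14.65 and 13.58 on day 16 and 11.38, 11.32 and 11.56 on day 30 and fell by 2.92 ± 0.65 (adjusted p = 0.0172). Col6a2 had 14.28, 14.35 and 13.06 against 11.13, 10.96 and 11.13 and fell by 2.82 ± 0.50 (7.08-fold lower, adjusted p = 0.00469). Col6a3 had 13.38, 13.27 and 11.54 against 9.90, 10.25 and 10.11 and fell by 2.64 ± 0.51 (adjusted p = 0.00766). For all 3 chains day 16 replicate 3 was the lowest day 16 array, and the days did not overlap. Col6a2 was kept in all 6 runs, although a second Col6a2 probe set did not pass (-1.52, adjusted p = 0.082). Col6a1 was lost without day 16 replicate 1 (0.0922), day 16 replicate 2 (0.0799) or day 30 replicate 2 (0.073). Col6a3 was lost without day 16 replicate 1 (0.057) or replicate 2 (0.0538) and its change was -3.24 without day 16 replicate 3.

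Type I and type III collagen, the bulk of bone and loose connective tissue matrix, gave a less even picture. Col1a1 had 15.68, 14.71 and 15.60 on day 16 and 14.22, 14.30 and 14.59 on day 30 and did not pass (-0.96 ± 0.69, adjusted p = 0.542). The probe set that stands for Col1a2 had 17.00, 16.39 and 16.35 against 15.37, 14.32 and 14.78 and did not pass either (-1.75 ± 0.66, adjusted p = 0.163). The other Col1a2 probe sets did. On 430A one fell by 2.72 ± 0.66 (adjusted p = 0.0272), lost without replicates 1 or 2 of day 16 or 2 or 3 of day 30, each left out alone (0.0653 to 0.133), and on 430B one fell at least 7.81-fold (adjusted p = 0.0394), lost in each of the 6 runs (0.0532 to 0.163). Col3a1 was among the 12 largest falls by 1 probe set, with 14.08, 13.99 and 12.57 against 10.26, 8.79 and 10.18 (-3.80 ± 1.00, adjusted p = 0.0409), kept without day 16 replicate 3 and lost without each other array (0.072 to 0.184). Its other probe set did not pass (-2.12, adjusted p = 0.348), and with chip lot as a block the change of the first was -5.56.

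Genes that process collagen moved both ways. Loxl1, a lysyl oxidase that cross-links elastin and collagen, had 11.72, 11.05 and 10.74 on day 16 and 8.28, 5.76 and 9.20 on day 30. It fell at least 8.16-fold (-3.42 ± 0.76, adjusted p = 0.0169), with a change of -2.43 without day 30 replicate 2 and -4.15 without day 30 replicate 3, and was lost without day 16 replicate 1 or 2 or day 30 replicate 2 (0.0642 to 0.108). Pcolce, which speeds the cutting of procollagen, fell by 2.29 ± 0.51 (adjusted p = 0.0172), lost without day 16 replicate 1 or 2 or day 30 replicate 2 (0.0753 to 0.0843). Col11a1 fell by 2.09 ± 0.43 (adjusted p = 0.0121), lost without day 16 replicate 1 (0.0865) or day 30 replicate 2 (0.0563). Col14a1, a collagen on fibril surfaces, fell by 1.67 ± 0.37 (adjusted p = 0.0169), lost without day 16 replicate 1 or 2 or day 30 replicate 1 or 2 (0.0573 to 0.0913). In the other direction Plod2, a lysyl hydroxylase of collagen telopeptides, had 13.39, 13.83 and 13.81 on day 16 and 15.31, 15.98 and 15.33 on day 30 and rose by 1.86 ± 0.29 (3.63-fold, adjusted p = 0.00261, kept in all 6 runs). P4ha2, a prolyl hydroxylase that also acts on type IV collagen, was higher without overlap but did not pass (1.23 ± 0.35, adjusted p = 0.0604).

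**Figure D3:**
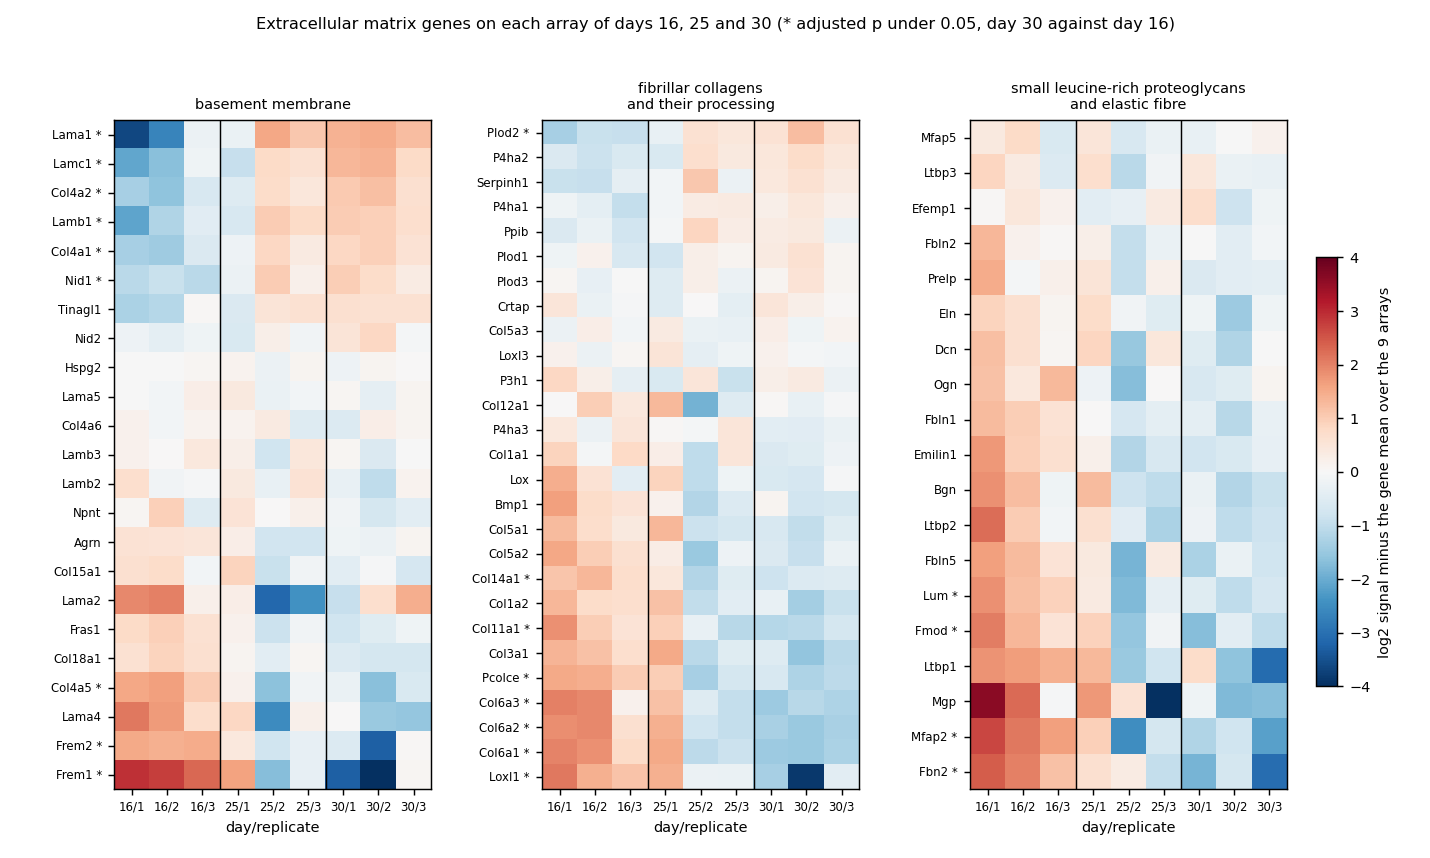
Heat maps of the log2 signal of each measured gene of 3 matrix lists (lines) on each array of day 16, day 25 and day 30 (columns, written as day and replicate), in colour as the difference from the gene's mean over these 9 arrays, with a star at genes past an adjusted p of 0.05. The laminin, type IV collagen and nidogen 1 genes at the top left are low (blue) on day 16 and high (red) on day 30, and most genes of the small proteoglycan and elastic fibre panel run the other way.

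Small proteoglycans coat collagen fibrils, and elastic fibres form on a scaffold of microfibrils. Of 19 measured 0 rose and 4 fell, all 19 changes were below 0 with a median of -1.68, and 16 had days that did not overlap. Over all genes 1.52% fell and 24.9% had days without overlap. Their summed signal was 83090 to 194800 on day 16 and 38600 to 61030 on day 30. Mfap2, a microfibril protein, had 12.74, 12.17 and 11.70 on day 16 and 8.84, 9.26 and 7.88 on day 30 and fell by 3.55 ± 0.78 (11.7-fold lower, adjusted p = 0.0163). It was lost without day 16 replicate 1 (0.0865), day 16 replicate 2 (0.0652) or day 30 replicate 3 (0.0655). Fbn2, fibrillin 2 of embryonic microfibrils, went on 430B from 12.99, 13.04 and 12.05 to 9.85, 9.66 and 9.63 and fell by 2.98 ± 0.52 (7.90-fold lower, adjusted p = 0.00625, kept in all 6 runs). Its 430A probe set fell at least 10.0-fold (adjusted p = 0.0121), lost without day 16 replicate 1 or 2 or day 30 replicate 3 (0.0573 to 0.0724).

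Fmod, fibromodulin, and Lum, lumican, both of which bind collagen fibrils, were the other two that fell. Fmod changed by -2.35 ± 0.59 (adjusted p = 0.0338), kept without day 16 replicate 3 and lost without each other array (0.0628 to 0.177). Lum changed by -2.04 ± 0.54 (adjusted p = 0.0434) and was lost in each of the 6 runs (0.0554 to 0.188). Mgp, matrix Gla protein, an inhibitor of calcification, had 12.74, 11.39 and 9.07 on day 16 and 8.95, 7.36 and 7.41 on day 30, a wide spread, and did not pass (-3.16 ± 1.35, adjusted p = 0.233). With the Gapdh ratio as a covariate 0 of the 19 genes passed, with a median change of -1.42, and with chip lot as a block 8 fell.

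Markers of mesenchyme and smooth muscle were measured beside these matrix genes. Of 21 measured mesenchyme and fibroblast markers 0 rose and 3 fell, with a median change of -1.16 and a summed signal of 91310 to 148300 on day 16 and 58470 to 75420 on day 30. Cdh2, N-cadherin, had 11.72, 11.66 and 11.11 on day 16 and 9.91, 8.42 and 9.19 on day 30 and fell by 2.32 ± 0.45 (adjusted p = 0.00769), lost without day 30 replicate 2 (0.0596), while a second Cdh2 probe set did not pass (-0.85, adjusted p = 0.17). Tgfbi, a matrix protein that TGF-beta induces, fell by 3.34 ± 0.83 (adjusted p = 0.0319), lost without day 16 replicate 1 or 2 or day 30 replicate 2 or 3 (0.0814 to 0.146). Twist1, a mesenchymal transcription factor, fell at least 3.21-fold (adjusted p = 0.0283), lost without day 16 replicate 1 or 2 or day 30 replicate 1 or 3 (0.0889 to 0.142), with a change of -3.63 without day 30 replicate 2. With the Gapdh ratio as a covariate 0 of the 21 passed. Fn1, fibronectin, overlapped between the days (-0.42, adjusted p = 0.654), and so did Pdgfra (0.43, adjusted p = 0.878).

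Of 13 measured smooth muscle markers 2 fell, Tagln and Actg2, beside 1.52% of all genes that fell. Their list had a median change of -0.94 and a summed signal of 88980 to 138100 on day 16 and 47020 to 50540 on day 30. Actg2, gamma smooth muscle actin, changed by -2.19 ± 0.60 (adjusted p = 0.0498), kept without day 16 replicate 3 and lost without each other array (0.106 to 0.202). Acta2, alpha smooth muscle actin, had 16.03, 15.16 and 15.54 against 13.46, 13.32 and 13.85, without overlap, and did not pass (-2.03 ± 0.85, adjusted p = 0.221). Of 24 cardiac muscle markers 2 rose, Gata4 and Nppb, a natriuretic peptide (1.24 ± 0.26, adjusted p = 0.0125, lost without day 16 replicate 1 or 2 or day 30 replicate 2 at 0.0642 to 0.0865). The median cardiac change was -0.79 and the sum 51280 to 76890 against 27180 to 29710, with sarcomere genes such as Actc1 not past the test (-2.18, adjusted p = 0.263).

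Markers of osteoblasts, the labelled cell type, showed no common direction. Of 16 measured 0 rose and 1 fell, with a median change of -0.01 and a summed signal of 63860 to 75500 on day 16 and 54090 to 61390 on day 30. Changes were below 0 for 8 genes and above 0 for 8, from -3.16 to 2.14. Where the days did not overlap, 4 genes were lower and 3 higher on day 30. Cdh11, osteoblast cadherin, which mesenchyme also expresses, had 11.99, 12.08 and 10.87 on day 16 and 9.09, 8.10 and 8.73 on day 30 and fell by 3.01 ± 0.60 (8.04-fold lower, adjusted p = 0.00963). It was lost without day 16 replicate 1 (0.0577), day 16 replicate 2 (0.0606) or day 30 replicate 2 (0.0597), and its other probe set did not pass (-1.31, adjusted p = 0.45). Alpl, the alkaline phosphatase of mineralising cells, had 8.99, 8.45 and 8.50 against 9.07, 8.64 and 8.62, below the median of 9.81 of the probe sets tested on 430A, and did not pass (0.13, adjusted p = 0.945). Sp7, osterix, the osteoblast transcription factor, overlapped between the days (0.41, adjusted p = 0.654). Postn, periostin, was lower without overlap, at 13.24, 13.25 and 12.80 against 9.88, 10.01 and 9.90, and did not pass (-3.16 ± 1.16, adjusted p = 0.145).

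The labels report RT-PCR of osteoblast markers, with osteocalcin highest at day 30. Of the 5 genes they name 1 was tested here, Sparc, osteonectin, a matrix protein that bone and basement membranes both hold. Ibsp, bone sialoprotein, did not pass the filter on low values, and osteocalcin and the other two are not analysed here. Sparc had 15.53, 15.01 and 15.79 on day 16 and 16.94, 17.29 and 16.85 on day 30, a rise of 1.59 ± 0.41 (3.00-fold, adjusted p = 0.0362). The call was kept without day 16 replicate 3 and lost without each other array (0.0671 to 0.169) and with chip lot as a block (0.173), and its other probe sets did not pass (1.01 with adjusted p = 0.15, and 0.06 with 0.97). Of 12 measured genes of the vitamin D response 0 passed by the probe set that stands for each, with a median change of -0.18. By another probe set, 1 gene of this list rose. Cyp24a1, which degrades active vitamin D and is a standard target of its receptor, had a change of -0.20 (adjusted p = 0.905).

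Ligands, receptors and antagonists of the Wnt, BMP and insulin-like growth factor pathways were counted by the 1 probe set that stands for each gene. Over all genes 0.872% rose and 1.52% fell. Of 38 measured Wnt pathway genes 0 rose and 5 fell, with a median change of -0.42. Fzd2, a Wnt receptor, had 11.82, 11.33 and 11.40 on day 16 and 9.61, 9.06 and 9.93 on day 30 and fell by 1.99 ± 0.33 (adjusted p = 0.00349, kept in all 6 runs). Sfrp1 and Sfrp2, secreted Wnt antagonists, fell by 2.71 ± 0.66 (adjusted p = 0.0272) and by 2.23 ± 0.46 (adjusted p = 0.0121). Both were lost without day 16 replicate 1 or 2 or day 30 replicate 2, and Sfrp1 also without day 30 replicate 3 (0.0628 to 0.136 in these runs). Wnt2, a ligand, fell at least 3.91-fold (adjusted p = 0.0167), lost without day 16 replicate 1 or 2 or day 30 replicate 1 or 2 (0.0606 to 0.0805), with a change of -2.83 that was -2.22 without day 30 replicate 1 and -3.55 without day 30 replicate 3. Nkd1, an intracellular inhibitor, fell by 1.87 ± 0.41 on 430B (adjusted p = 0.0281), lost without day 16 replicate 1 or 2 or day 30 replicate 2 or 3 (0.103 to 0.164).

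Of 38 BMP and TGF-beta pathway genes 0 rose and 2 fell, with a median change of -0.37. Counting any probe set of a gene, 1 rose and 5 fell. Bmp4, a ligand, fell by 2.44 ± 0.62 (adjusted p = 0.0334), kept without day 30 replicate 1 and lost without each other array (0.0627 to 0.167). Bambi, a decoy receptor, fell at least 5.10-fold (-2.49, adjusted p = 0.0388), lost without day 16 replicate 1 or 2 or day 30 replicate 2 (0.145 to 0.228), with a change of -1.62 without day 30 replicate 2. Fst, follistatin, which binds activin, missed the threshold by that probe set (2.99, adjusted p = 0.0544), while another Fst probe set rose by 2.73 (adjusted p = 0.0228).

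Of 17 genes of the insulin-like growth factor axis 0 rose and 3 fell, with a median change of -0.87 and a summed signal of 147200 to 192900 on day 16 and 52430 to 78090 on day 30. Counting any probe set of a gene, 0 rose and 6 fell. Igf1 had 12.56, 12.46 and 10.86 on day 16 and 8.85, 9.36 and 8.68 on day 30 and fell by 2.99 ± 0.74 (7.97-fold lower, adjusted p = 0.0305), kept without day 16 replicate 3 and lost without each other array (0.0804 to 0.142). Its other probe sets did not pass, at -0.41, -1.01 and -2.95 (adjusted p = 0.796, 0.447 and 0.164). Igfbp2, a binding protein, fell by 1.91 ± 0.35 (adjusted p = 0.00606), lost without day 30 replicate 2 (0.0501). Igfbp3 fell by 2.18 ± 0.49 (adjusted p = 0.0197), lost without day 16 replicate 1 or 2 or day 30 replicate 2 (0.0825 to 0.118). With chip lot as a block, 1 gene of this axis fell and 1 rose.

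Imprinted genes are expressed from 1 parental allele, and several are known for strong expression in embryonic mesoderm. Of 23 measured 0 rose and 4 fell, with a median change of -0.74, beside 1.52% of all genes that fell. Of the 23, 15 had days that did not overlap, with day 30 lower in all 15, beside 24.9% of all genes without overlap. The summed signal was 286600 to 343700 on day 16 and 110300 to 150800 on day 30. Besides Mest, Ndn, necdin, had 14.37, 14.71 and 13.99 on day 16 and 12.61, 12.62 and 12.75 on day 30 and fell by 1.69 ± 0.32 (adjusted p = 0.00609, kept in all 6 runs). The noncoding RNA Meg3 had 14.69, 15.11 and 15.28 against 12.65, 13.24 and 14.23 and fell by 1.65 ± 0.37 (adjusted p = 0.0171). Nnat, neuronatin, fell by 1.48 ± 0.32 (adjusted p = 0.0147). Meg3 and Nnat were each lost without day 16 replicate 2 or 3 or day 30 replicate 1 or 2 (0.0501 to 0.0881) and with chip lot as a block (0.116 and 0.0815). Igf2, the paternally expressed growth factor, had 15.87, 15.34 and 15.09 against 13.23, 12.99 and 13.48 and did not pass (-2.20 ± 0.80, adjusted p = 0.145).

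Markers of other cell types were counted beside 2.39% of all genes that changed. At that share a list this short can hold 0 calls, so a 0 says little about a cell type. Of 27 macrophage and osteoclast markers 0 passed, with a median change of -1.25 and sums of 26370 to 101300 against 29850 to 45890. Of 17 endothelial markers 1 rose and 1 fell. These were Ramp2, a receptor partner (1.39 ± 0.35, adjusted p = 0.0335), kept without day 16 replicate 3 and lost without each other array (0.0638 to 0.184), and Sox18, which fell at least 5.13-fold (adjusted p = 0.0451) and was lost in each run (0.077 to 0.178). Counting any probe set of a gene, 1 endothelial marker rose and 3 fell. None of 23 simple epithelium markers, 15 cartilage, 13 skeletal muscle, 12 embryonic erythroid and 12 trophoblast markers passed, with medians of -0.15, -0.15, 0.21, -0.73 and -0.18. By another probe set, 1 erythroid gene fell. Of 27 stratified epithelium markers 1 rose, Lor, loricrin (1.21, adjusted p = 0.0309), kept without day 16 replicate 3 and lost without each other array (0.0674 to 0.164). The other Lor probe sets did not pass (-0.06 and -2.28).

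Of 28 pluripotency genes 2 rose and 0 fell, with a median change of 0.06. Changes were below 0 for 13 and above 0 for 15, from -3.34 to 2.25. Where the days did not overlap, 5 genes were lower and 4 higher on day 30. Sall4, a zinc finger factor of stem cells and of extraembryonic endoderm, had 10.26, 12.08 and 13.01 on day 16 and 13.90, 14.17 and 13.66 on day 30 and rose by 2.12 ± 0.45 (adjusted p = 0.0134). Without day 16 replicate 1 the change was 1.36 and no longer passed (adjusted p = 0.0652), nor did it without day 30 replicate 2 (0.0706), and it was 2.74 without day 16 replicate 3. Klf4 rose by 1.41 ± 0.28 (adjusted p = 0.00963), lost without day 16 replicate 1 (0.0724) or day 30 replicate 2 (0.0597). The core factors Pou5f1 and Nanog each had a change of 0.09 and did not pass. Of 23 neural genes, with a median change of -0.49 and 17 changes below 0 against 6 above, 1 rose and 1 fell. These were Nrcam, an adhesion molecule (2.81, adjusted p = 0.0381), lost in each run (0.0642 to 0.167), and Nes, nestin (-2.64, adjusted p = 0.0272), lost without day 16 replicate 1 or 2 or day 30 replicate 2 or 3 (0.0777 to 0.154), with -3.36 without day 30 replicate 1. The other Nrcam probe sets did not pass (0.82, 0.68 and -0.10), nor did that of Nes, which lay on the other side of 0 (0.39, adjusted p = 0.716). The second probe sets of Sall4 (0.94, adjusted p = 0.199) and Klf4 (1.22, adjusted p = 0.11) did not pass either.

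Of 16 adipocyte and lipid genes 0 rose and 3 fell, with a median of -0.21, beside 1.52% of all genes that fell. Cebpb, a transcription factor of early fat cell differentiation, had 11.90, 12.67 and 11.58 on day 16 and 10.34, 9.39 and 10.29 on day 30 and fell by 2.04 ± 0.37 (adjusted p = 0.00586, kept in all 6 runs). Lpl, lipoprotein lipase, fell by 2.05 ± 0.48 (adjusted p = 0.0225), kept without day 30 replicate 3 and lost without each other array (0.0538 to 0.146). Fabp5, a fatty acid binding protein, fell by 0.94 ± 0.23 (adjusted p = 0.0283), lost without day 16 replicate 1 or 2 or day 30 replicate 2 or 3 (0.0569 to 0.163).

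Lists of general cell functions differed in their calls, beside 2.39% of all genes that changed. Of 55 cell division genes, 57 respiratory chain subunits, 37 ribosomal proteins and 23 Hox genes 0 passed, with medians of 0.21, 0.05, 0.21 and -0.17. By another probe set, 1 respiratory chain gene and 1 ribosomal protein gene rose. Of 27 hypoxia targets and glycolysis genes 3 rose and 1 fell, with a median of 0.22. Pgk1, phosphoglycerate kinase, had 16.64, 16.23 and 16.20 on day 16 and 17.34, 17.36 and 17.44 on day 30 and rose by 1.02 ± 0.21 (adjusted p = 0.0109), lost without day 16 replicate 2 (0.0642). Car12, a carbonic anhydrase, rose by 1.11 (adjusted p = 0.0334), kept only without day 30 replicate 3 (0.0777 to 0.161 in the other 5 runs). Mxi1, which opposes Myc, rose by 1.07 (adjusted p = 0.0221), kept only without day 30 replicate 1 (0.0622 to 0.0842 otherwise). Pfkl, a phosphofructokinase, fell by 0.77 (adjusted p = 0.0411), kept only without day 16 replicate 3 (0.0592 to 0.226 otherwise). Of 39 lysosomal genes 2 rose. Tpp1, a peptidase (1.08, adjusted p = 0.0278), was kept only without day 30 replicate 3 (0.0545 to 0.151 otherwise), and Lamp1, a membrane protein (1.07, adjusted p = 0.0209), was lost without day 16 replicate 1 or 2 or day 30 replicate 2 (0.0865 to 0.118). With chip lot as a block the calls of Pgk1 (0.0524), Car12 (0.077), Mxi1 (0.133) and Tpp1 (0.16) were lost. Other probe sets did not pass for Pgk1 (0.60 and -0.68), Mxi1 (0.69), Pfkl (-0.81 and 0.35) and Tpp1 (-0.10). Among 26 acute phase genes 1 rose, Clu, clusterin, a secreted chaperone, from 15.23, 14.97 and 15.36 to 16.87, 17.04 and 17.39 (1.92 ± 0.37, adjusted p = 0.00843, kept in all 6 runs, adjusted p = 0.0553 with chip lot as a block).

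The remaining lists had at most 2 calls each by the probe set that stands for a gene. Among 21 matrix proteases and inhibitors Plaur, the urokinase receptor, rose by 1.03 (adjusted p = 0.0203), lost without day 16 replicate 1 or 2 or day 30 replicate 2 (0.0797 to 0.0975). Mmp11 fell at least 4.16-fold (adjusted p = 0.0127), lost without day 16 replicate 2 (0.0654) or day 30 replicate 2 (0.0706). Atf3, a stress factor, rose by 1.52 among 30 immediate early genes (adjusted p = 0.0402), lost without day 16 replicate 1 or day 30 replicate 1 or 2 (0.136 to 0.241), and Klf4 is on this list too. Ifitm1 fell by 1.70 among 28 interferon and MHC genes (adjusted p = 0.0234) and Idi1 by 1.61 among 20 cholesterol genes (adjusted p = 0.0339). Both were lost without day 16 replicate 1 or 2 or day 30 replicate 2 or 3 (0.0629 to 0.184), and Idi1 changed by -2.23 without day 16 replicate 3. Counting any probe set of a gene, 3 cholesterol genes fell, and so did 3 matrix proteases or inhibitors. Rprm, a p53 target, fell by 1.87 among 23 such genes (adjusted p = 0.0465) and was lost in each run (0.0874 to 0.167).

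**Figure D4:**
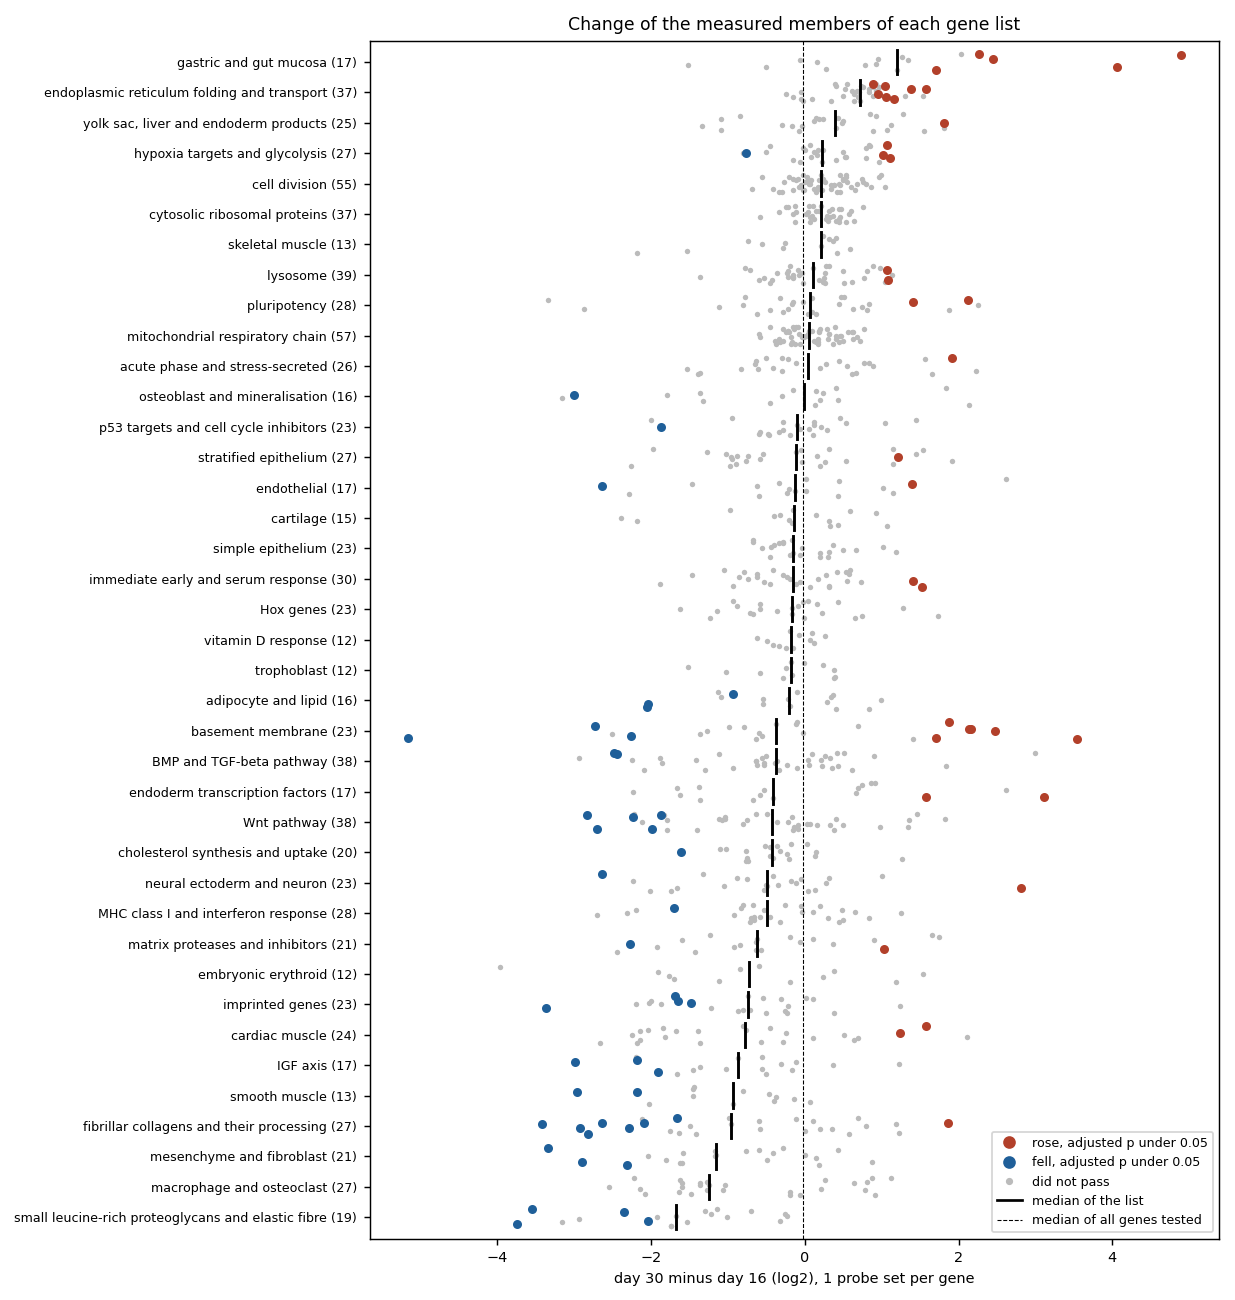
Change from day 16 to day 30 (log2, horizontal) of every measured gene of each list with at least 5 measured, 1 line per list with its number of genes, a bar at its median and a dashed line at the median of all genes, with red and blue points for genes that rose or fell at an adjusted p under 0.05. The median is highest for the gastric and gut mucosa list (1.20) and lowest for the small proteoglycan and elastic fibre list (-1.68).

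Day 25 lies between these days and shares their arrays in both partial comparisons, so its values are given side by side. From day 16 to day 25, 106 probe sets of 430A (0.635%) and 15 of 430B (0.0821%) passed. With the Gapdh ratio as a covariate 0 and 1 did. From day 25 to day 30, 0 passed on either chip in limma, where 853 and 1053 had an unadjusted p under 0.05 and the lowest adjusted p was 0.125 on 430A and 0.191 on 430B. Gkn2 had already changed by 4.28 at day 25 (adjusted p = 0.00298), Gkn1 by 3.59 (0.024), Aqp8 by 3.06 (0.00225), Srgn by 2.74 (0.00345) and Ctse by 1.64 (0.00298). Among the falls Crispld2 had changed by -3.05 (0.0303), Tagln by -2.42 (0.0202) and Mest by -2.25 (0.0387). Lama1 at 2.96 (0.0686) and Slc6a2 at 3.19 (0.124) had not passed by then.

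Single arrays stood closer to the other day. On 430A replicates 1 and 2 of day 25 were scanned in the batch of day 30. Over the 625 probe sets called between day 16 and day 30, which were chosen for that difference, arrays are described by which was nearest the mean of the other day. Of the day 25 arrays replicate 1 was nearest day 16 for 432, against 74 and 119 for replicates 2 and 3. Of the day 16 arrays replicate 3 was nearest day 30 for 374, against 132 and 119. The file header of day 16 replicate 3 gives culture number 4 where the other day 16 arrays carry their own replicate number. The largest changes and the gene lists together named 82 probe sets past the threshold, with Fbn2 counted on each chip and the endoplasmic reticulum list included. Further members described beside them are not in that number. Of the 82, 23 were kept whichever of the 6 arrays was left out. Leaving out day 16 replicate 3 kept most of them, while leaving out day 16 replicate 1, day 16 replicate 2 or day 30 replicate 2 lost most. With the Gapdh ratio as a covariate 45 of the 82 were lost. With chip lot as a block 46 of the 72 on 430A were kept. Besides those given above, that block ended the calls of Crim1, Plaur, Twist1, Sox18, Ramp2, Lor, Lrp2, Lpl, Fabp5, Atf3, Ifitm1, Rprm, Idi1, Bmp4, Igfbp3 and Igfbp2 (adjusted p 0.0504 to 0.152). Probe sets other than those named did not pass for Adamts9 (1.22, beside one that rose by 1.37), Mfap2 (-2.25), Lrp2 (2.02 and 0.27), Lpl (-1.29), Car12 (2.06), Sfrp1 (-2.08, -0.52 and -1.39) Fzd2 (-2.25, beside one that fell by 1.59) and Fmod (-1.68, -1.73, -2.58 and -1.15, beside one that fell by 4.86). Of Ndn and Meg3 some other probe sets fell and some did not pass, at 0.67 and 0.04 for Ndn and between -2.60 and -0.22 for Meg3.

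**Figure D5:**
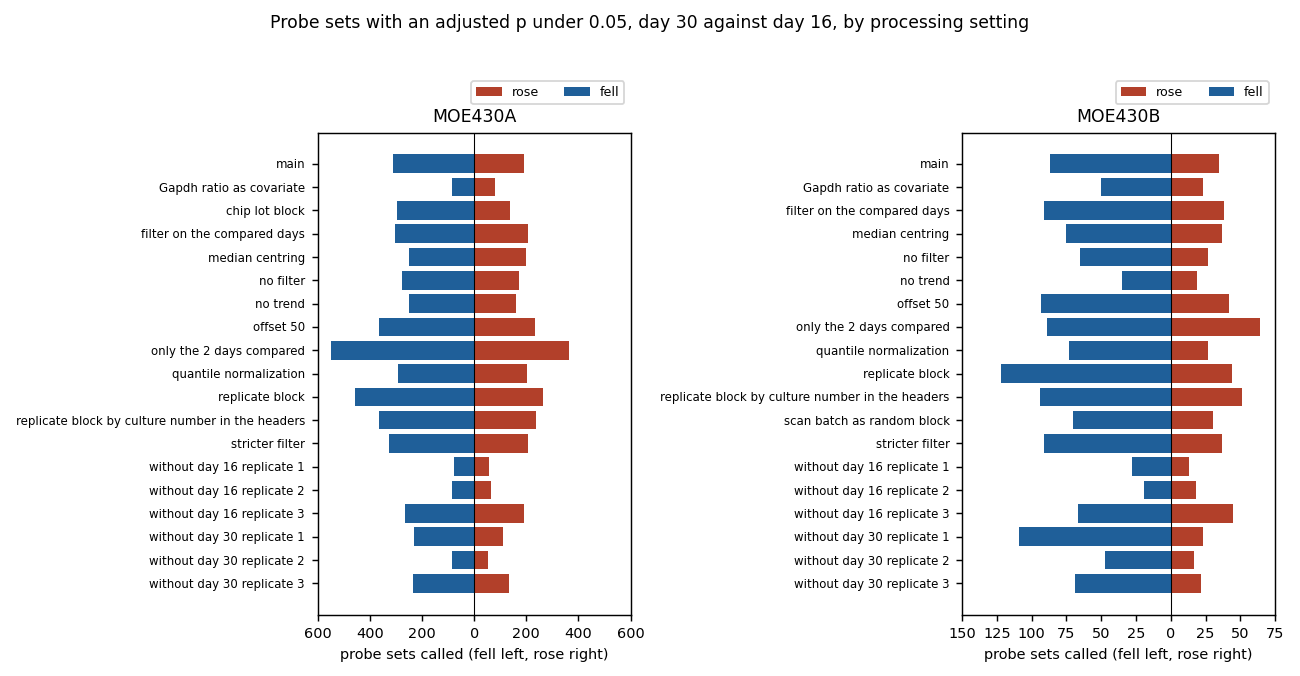
Number of probe sets past an adjusted p of 0.05 between day 16 and day 30 under each processing setting, 1 panel per chip, with falls drawn to the left of 0 and rises to the right, where the bar named main is the fit reported. The count on 430A runs from 135 without day 16 replicate 1 to 911 when only the arrays of these days are fitted.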

How the data were processed

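Per the submitters' processing notes the authors deposited MAS5 signal, of a version not given in the sources used here. These deposited signals carry a scaling that sets the trimmed mean of an array (2% left off at each end) to 1500, as was checked for every array. No further step between arrays was applied here, and arrays carry no read depth, so precision is limited by how many there are. Symbols were taken from the platform's annotation together with a RefSeq table of GRCm38.p6.

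Samples were grouped by title. Tests used the log2 of the signal without an offset, and a probe set entered the test if at least 3 of the 21 arrays of its chip had it above their own 40th percentile. The chips were fitted separately with limma (version 3.58.1, in R 4.3.3 with the package data.table at version 1.17.8), using all 21 arrays and a term for day (14 residual degrees of freedom), then eBayes with a trend. Tests are two-sided, with Benjamini-Hochberg adjustment over each chip and comparison. Tables and figures were made with Python 3.11.15, pandas 2.3.3, numpy 2.4.6 and matplotlib 3.10.9.

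The text names the 12 largest rises and the 12 largest falls among genes past the threshold with 1 symbol, a probe set ID not ending in _x_at, days without overlap and a mean above the chip's median (1 probe set per gene, the largest change), and for each of 39 gene lists up to 4 members past the threshold or the 2 with the lowest adjusted p. The rule for day 30 against day 25 named no gene. A gene stands on a list for its brightest tested 430A probe set, or its brightest on 430B where 430A had none. List counts use that probe set and leave out calls of a gene's other probe sets, unless the text says otherwise. Members and lists were chosen with earlier results of these data known, and other members and probe sets named beside them were chosen after their values were seen, as was the rule for lower bounds. The alternatives were another filter or none, offset 50, median centring, quantile normalization, no trend, only the days compared, blocks for replicate, culture number, chip lot and scan batch, the Gapdh ratio as a covariate, and each array left out.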

Additional observations from a re-analysis of the deposited data

How the results depend on the processing

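Counts of probe sets past the threshold between day 16 and day 30, 503 on 430A and 122 on 430B, ranged from 135 to 455 and from 37 to 132 with 1 array left out. They were 166 and 73 with the Gapdh ratio as a covariate, 911 on 430A with only the days compared and 54 on 430B without the trend. The 911 held 405 of the 503. On 430B 153 passed with only the days compared, and these held 74 of the 122. The split of calls was 38.2% rising on 430A. The labels do not say whether equal replicate numbers share a culture. Same-numbered arrays of day 16 and day 30 deviated together little (correlations of 0.07, -0.01 and 0.08 on 430A), which cannot settle whether they pair. With the replicate block more probe sets passed, 720 and 166, and all 82 calls named by the largest changes or a gene list were kept. With the culture number of the headers as the block 604 and 145 passed. These held 410 of the 503 and 101 of the 122, and 7 of the 82 named calls were lost. For day 30 against day 25, 0 on both chips, the counts were 1 with the Gapdh ratio, 2 with chip lot and 7 with scan batch as a block on 430A, 9 and 31 with chip lot and scan batch as blocks on 430B, and 0 to 8 and 0 to 7 with 1 array left out. For day 25 against day 16, 106 and 15, they were 0 and 1 with the Gapdh ratio, 12 and 0 with only the days compared, and 206 and 28 with the replicate block. On 430B they were 6 without the filter, 3 without the trend, 23 with the culture number as a block and 8 with scan batch as a random block, and with 1 array left out 20 to 264 and 0 to 52. Of 905 listed genes 74 passed, against 29 with the Gapdh ratio, 136 with only the days compared and 22 to 77 with 1 array left out. The change of Cdx2, not past the test, turned from -1.52 to 0.02 with chip lot as a block. The causes were not tested. A scan batch block for day 30 against day 16 could not be fitted, because no batch holds both days.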

Other observations

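A list of 37 genes for folding and transport in the endoplasmic reticulum, added after the values were seen, held 7 rises and 0 falls, with a median change of 0.72. Of the 37, 27 had days that did not overlap, with day 30 higher in all 27. Over all genes 0.872% rose and 24.9% had days without overlap. The summed signal of the list was 343300 to 361000 on day 16 and 521400 to 649300 on day 30. Erp44, which retains proteins in the early secretory pathway, had a log2 signal of 12.34, 11.90 and 12.49 on day 16 and 13.42, 13.84 and 13.61 on day 30 and rose by 1.38 ± 0.24 (limma, adjusted p = 0.0044, kept with each array left out). Pdia5, a disulfide isomerase, rose by 1.57 ± 0.33 (adjusted p = 0.0121) and Edem2, which trims glycans of misfolded proteins, by 1.16 ± 0.26 (adjusted p = 0.0172). Both were lost without day 16 replicate 1 or 2 or day 30 replicate 2 (adjusted p 0.0663 to 0.109). Second probe sets of Erp44 (0.47) and Edem2 (-0.99) did not pass. Dnajc10, a reductase that helps misfolded proteins out, rose by 1.06 ± 0.28 (adjusted p = 0.0398), lost without day 16 replicate 1 or 2 or day 30 replicate 1 or 2 (0.119 to 0.196).

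The following were picked after their values were seen. Ptn, pleiotrophin, a heparin-binding growth factor, had 12.19, 12.82 and 10.77 on day 16 and 7.77, 6.64 and 8.21 on day 30 and fell at least 19.5-fold (adjusted p = 0.00194, kept with each array left out). A second probe set of the imprinted gene Peg3 had 9.90, 9.78 and 10.43 against 6.09, 4.54 and 5.48 and fell at least 8.49-fold (adjusted p = 0.0036, kept with each array left out), while its brightest probe set did not pass (-0.81, adjusted p = 0.256). Both subunits of soluble guanylate cyclase, the receptor for nitric oxide, fell. Gucy1a1 had 10.42, 10.88 and 9.34 against 5.04, 5.51 and 5.70 on 430B, at least 5.84-fold lower (adjusted p = 0.00777), lost without day 16 replicate 1 (0.0518) or replicate 2 (0.0707). Gucy1b1 had 10.76, 10.85 and 10.11 against 7.75, 8.20 and 7.89 on 430A and fell by 2.62 ± 0.62 (adjusted p = 0.0244), kept without day 16 replicate 3 and lost without each other array (0.0647 to 0.11).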
